A study of Caenorhabditis elegans with 2 samples.

Results

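The proteasome subunit genes of Caenorhabditis elegans were taken as all protein-coding genes whose symbol starts with pas-, pbs-, rpn- or rpt- in the Ensembl annotation of the build WBcel235 (ce11). The rule found 33 of the 19973 protein-coding genes on nuclear chromosomes. Of these, 14 encode the core particle (7 pas- and 7 pbs- genes) and 19 the regulatory particle (13 rpn- and 6 rpt- genes). The regions came from ChIP-seq, in which chromatin is immunoprecipitated and its DNA sequenced, of SPR-1, a worm relative of the corepressor CoREST. The worms were of strain OP521, with the genotype unc-119(tm4063) III and the transgene wgIs521, from which SPR-1 with GFP and FLAG at its C-terminus was stably expressed, and an antibody against GFP was used. The worms were whole L4 hermaphrodites, taken 50 hours after synchronisation as starved L1 larvae, in 1 group of 2 biological replicates. No list from worms without the tag was at hand, and the control alignment named in the file listings was not analysed here, so a region below is a place the authors' processing listed, with no measure here of how much of it is specific to SPR-1. With 1 group there is no contrast between samples to test, and the results below are counts, ranks and positions.

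The proteasome degrades proteins marked with ubiquitin. Its core particle is a stack of rings of alpha (pas) and beta (pbs) subunits, with the proteolytic sites inside the beta rings. The regulatory particle caps the core: its base holds a ring of ATPases (rpt) that unfold substrates, and its lid holds the deubiquitinase RPN-11. In this species the transcription factor isoform SKN-1A raises proteasome subunit genes when proteasome function falls, and it recognises sites with the core GTCAT or ATCAT.

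The DNA under 4 of the 6 strongest regions is shown first, because the comparison of positions and words below refers to it. The other two, of pas-5 and pas-4, are not shown. Of the members shown, rpn-3, rpn-11 and rpt-6 had a region in the authors' thresholded list, and rpt-2 had one among the strongest of replicate 2. The sequences are from the RefSeq genome of WBcel235, 5′ to 3′ on the strand of the proteasome gene, centred on the summit (the base of highest signal) and cut at annotated untranslated regions. Capitals mark GTCAT and ATCAT, and also GATAA and TTCCCGC, on either strand. The rpn-3 stretch lies at chrIII:8446989-8447288 (plus strand, summit at base 151), the rpn-11 stretch at chrII:4044547-4044701 (minus strand, summit at base 150), the rpt-6 stretch at chrIII:12369605-12369904 (plus strand, summit at base 151) and the rpt-2 stretch at chrV:6017688-6017969 (minus strand, summit at base 132).
rpn-3: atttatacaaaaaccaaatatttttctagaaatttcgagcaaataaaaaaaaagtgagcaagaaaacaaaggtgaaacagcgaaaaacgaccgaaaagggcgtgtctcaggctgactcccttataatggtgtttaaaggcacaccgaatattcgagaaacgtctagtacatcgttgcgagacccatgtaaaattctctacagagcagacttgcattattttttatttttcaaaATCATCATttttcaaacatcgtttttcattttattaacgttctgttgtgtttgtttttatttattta
rpn-11: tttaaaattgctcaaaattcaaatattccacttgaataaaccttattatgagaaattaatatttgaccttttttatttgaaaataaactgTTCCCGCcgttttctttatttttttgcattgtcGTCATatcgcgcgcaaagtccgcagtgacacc
rpt-6: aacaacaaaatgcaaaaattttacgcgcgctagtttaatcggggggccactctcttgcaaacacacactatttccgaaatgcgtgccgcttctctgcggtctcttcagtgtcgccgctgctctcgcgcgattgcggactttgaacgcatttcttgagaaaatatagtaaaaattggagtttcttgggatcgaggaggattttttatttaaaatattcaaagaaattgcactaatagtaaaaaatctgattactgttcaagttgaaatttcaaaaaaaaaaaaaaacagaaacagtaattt
rpt-2: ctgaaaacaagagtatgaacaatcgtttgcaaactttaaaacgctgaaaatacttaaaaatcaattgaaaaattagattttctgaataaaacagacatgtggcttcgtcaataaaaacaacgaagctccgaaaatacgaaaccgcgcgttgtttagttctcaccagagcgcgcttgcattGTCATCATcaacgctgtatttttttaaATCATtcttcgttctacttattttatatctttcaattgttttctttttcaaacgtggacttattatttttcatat
The rpn-3 stretch holds ATCAT as an overlapping pair, the rpn-11 stretch GTCAT and TTCCCGC once each, and the rpt-6 stretch none of the 4 words. The counts of words further below use the uncut windows of 300 bases, which for rpn-11 and rpt-2 hold further matches outside the stretch printed. In the rpt-2 stretch, GTCAT and ATCAT overlap at one place and ATCAT is found once more.

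Every proteasome gene that the rule found had a candidate region near its start, but few had a strong one. A candidate is any region of the pooled list of 30000, which was made from both replicates together, and a gene had one when its annotated start had a summit no more than 1000 bp away. This held for 33 of 33 proteasome genes, against 45.8% of all protein-coding genes. It also held for 8 of 8 chaperonin, 6 of 6 COP9 signalosome and 75 of 78 cytosolic ribosomal protein genes, complexes compared further below. At 25 of the 33, the start of another protein-coding gene also lay within 1000 bp of the strongest summit (75.8%, against 31.7% of genes with a candidate). The share was 75.0% for chaperonin, 70.7% for ribosomal protein and 33.3% for COP9 signalosome genes. The proteasome gene's own start was the nearest one at 25 (75.8%, against 84.0%), so a candidate here need not belong to the proteasome gene. A gene was called bound when a summit of the thresholded list of 1686 lay within the same distance. This held for 4 proteasome genes (12.1%), namely rpn-3, pas-5, rpn-11 and rpt-6. The share was 5.83% of all protein-coding genes and 12.7% of the 9153 with a candidate, so among genes with a candidate the proteasome genes were at the background share. In replicate 1, 30 of 33 had a candidate (background 43.5%), and 4 were among its 1686 strongest regions (background 13.0% of genes with a candidate). In replicate 2, 24 of 33 had a candidate (background 38.8%), and 5 were among its strongest (background 15.4%). The signal value is on the authors' own scale, which was not given in the sources used here, and read depth is unknown, so signals are compared only within a list.

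Each gene was also ranked by its strongest summit among all protein-coding genes with a candidate in the same list, where percentile 100 is the strongest gene. The 33 proteasome genes ran from percentile 10.8 (rpt-4) to 98.1 (rpn-3) in the pooled list, with a median of 62.6 where all genes with a candidate have 50.0. In that list, 21 of the 33 lay above the median of all genes with a candidate. Across the 23 proteasome genes with a candidate in both replicates, the percentiles in replicate 1 and replicate 2 had a Spearman correlation of 0.691, against 0.648 over 5733 protein-coding genes. These correlations are across genes of the same libraries and describe the lists.

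**Figure D1:**
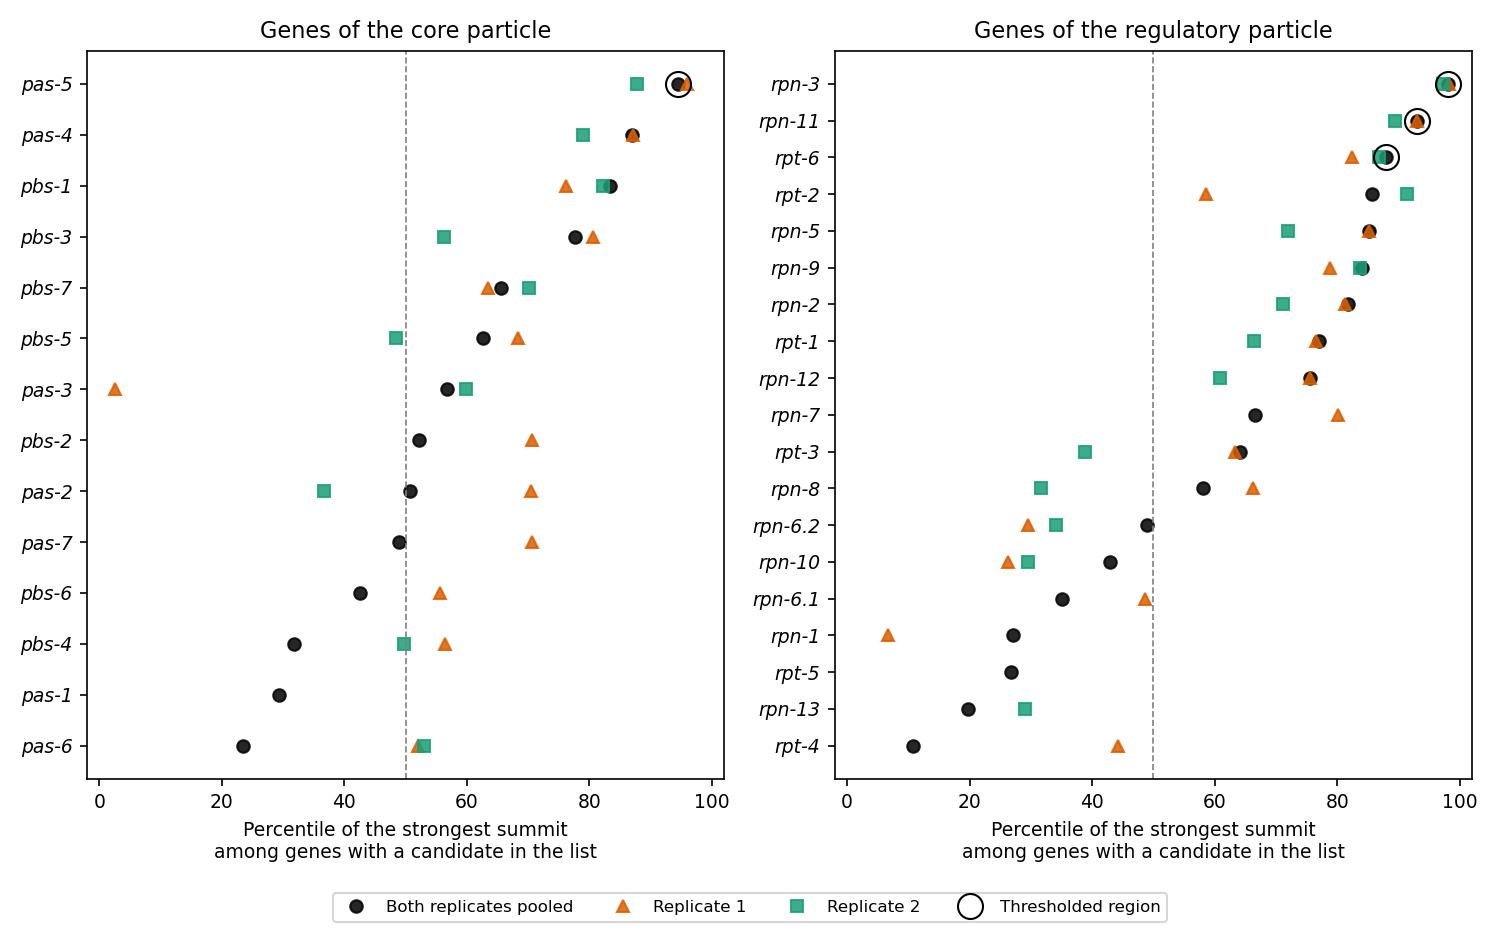
Percentile of the strongest summit within 1000 bp of the start of each proteasome gene (x axis, percentile among genes with a candidate in the list; y axis, genes ordered by the pooled list), for the pooled list, replicate 1 and replicate 2. Rings mark the 4 genes with a thresholded region, and genes such as pas-1 and rpt-5, with no candidate in either replicate, have a pooled point alone.

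In the lid of the regulatory particle, rpn-3 had the strongest region of any proteasome gene. It encodes a scaffold subunit of the lid with a PCI domain. Its pooled signal was 219, rank 178 of 9153 genes, with 127 in replicate 1 (percentile 98.2) and 94.9 in replicate 2 (percentile 97.3). It was high in every list, and the summits of both replicates lay upstream of the start, at 216 bp in replicate 1 and 170 bp in replicate 2. The pooled region, chrIII:8447041-8447263, was 223 bp wide, with its summit 214 bp upstream of rpn-3 (WBGene00004460) and 230 bp upstream of hsp-110, a chaperone gene on the other strand. The annotated starts of the pair are 444 bp apart, so the region cannot be assigned to one of them by position.

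The deubiquitinase gene rpn-11, whose product removes ubiquitin from substrates as they enter, had its summit at its annotated start. Its pooled signal was 114 (percentile 93.1), with 65.4 in replicate 1 (percentile 93.0) and 47.3 in replicate 2 (percentile 89.5). The summits lay 6 bp upstream of the start in the pooled list, 16 bp in replicate 1 and 5 bp in replicate 2. The region, chrII:4044322-4044781, spans the whole gap of 224 bp between rpn-11 (WBGene00004467) and the end of K07D4.2, the gene before it on the same strand. The start of K07D4.2 lies 944 bp from the summit.

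The other lid genes had weaker regions. The scaffold gene rpn-5 had a pooled signal of 72.9 (percentile 85.2) with its summit 35 bp inside the gene, and percentiles of 85.2 and 71.9 in replicates 1 and 2. The gene rpn-9, for another PCI subunit, had 68.7 (percentile 84.0), with 78.8 and 83.7 in the replicates. The lowest lid gene was rpn-6.1 (percentile 35.1), whose product braces the lid against the core, and its paralog rpn-6.2 was at percentile 48.9. Over the 9 lid genes that the rule found, the median percentile was 75.6, and 2 were bound (22.2%, against the 12.7% given above).

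Among the base genes, the ATPase gene rpt-6 was the one with a thresholded region. Its pooled signal of 82.5 (percentile 88.0) was just above the lowest thresholded signal of 79.7. Replicate 1 gave 38.7 (percentile 82.5), which was not among its 1686 strongest, and replicate 2 gave 41.5 (percentile 86.9), which was. The summit, in chrIII:12369525-12369984, lay 701 bp upstream of rpt-6 (WBGene00004506) and 705 bp upstream of his-72, a histone H3.3 gene on the other strand. It was at 708 bp in replicate 1 and 701 bp in replicate 2, about midway between the starts in each.

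The ATPase gene rpt-2 had the largest gap between replicates among the 5 strongest proteasome genes that were not bound. Its pooled signal was 74.4 (percentile 85.7). Replicate 2 gave 52.5 (percentile 91.4) with a summit 162 bp upstream, which was among its strongest regions. Replicate 1 gave 24.0 (percentile 58.6) with its strongest summit 120 bp inside the gene. It also had another summit within 200 bp of the pooled one. The neighbour here is aps-1, a clathrin adaptor gene, 301 bp away on the other strand. The remaining ATPase genes spanned percentile 77.1 for rpt-1, 64.2 for rpt-3, 26.7 for rpt-5 and 10.8 for rpt-4, the lowest of all 33. The base scaffold genes differed from each other, with rpn-2 at percentile 81.7 and rpn-1 at 27.1. The ubiquitin receptor genes rpn-10 (42.9) and rpn-13 (19.8) were below the median of all genes with a candidate.

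In the core particle, pas-5, for an alpha ring subunit, was the one bound gene. Its pooled signal was 132 (percentile 94.5), with 89.8 in replicate 1 (percentile 96.0) and 43.2 in replicate 2 (percentile 87.8). All lists were high, but the summit was far from the gene: 906 bp upstream in the pooled list, 971 bp in replicate 1 and 911 bp in replicate 2. It lay 1 bp from the end of F25H2.15, a small nucleolar RNA gene on the same strand, and no start of another protein-coding gene lay within 1000 bp. Without regions within 200 bp of a tRNA or small nucleolar RNA gene, 0 core genes were bound, against 5.25% of all protein-coding genes. The next core gene, pas-4, had 78.3, just under the threshold, with its summit 121 bp upstream and 156 bp upstream of rpb-3, an RNA polymerase II subunit gene. It was among the strongest regions of replicate 1 (signal 46.7, percentile 87.1) and not of replicate 2 (31.7, percentile 79.0). The count of bound core genes was therefore 2 without replicate 2 (background 5.65% of all protein-coding genes).

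Of the genes for the beta subunits with proteolytic sites, known from yeast and mammals, pbs-1 was at percentile 83.4 (signal 66.7), pbs-5 at 62.6 and pbs-2 at 52.2. Of 7 beta ring genes, 0 were bound in the pooled list (background 12.7%), 0 in replicate 1 (13.0%) and 0 in replicate 2 (15.4%). Within 2000 bp, pbs-1, pbs-2 and pbs-5 had a thresholded summit, and the region itself reached the 1000 bp window of pbs-5. Over all protein-coding genes, 8.52% had such a summit and 6.46% such a region. Among the 23 proteasome genes with a candidate in both replicates, the alpha gene pas-3 had the widest split, at percentile 2.56 in replicate 1 and 59.9 in replicate 2, with summits 226 bp and 217 bp upstream. Others had a candidate in 1 replicate alone, such as the lid gene rpn-7, at percentile 80.1 in replicate 1 and with none in replicate 2.

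Set side by side, the 2 particles overlapped over most of their range. Of 14 core genes 1 was bound (7.14%), and of 19 regulatory genes 3 (15.8%), around the background of 12.7%. The pooled median percentile was 54.5 for core genes (23.4 to 94.5) and 66.6 for regulatory genes (10.8 to 98.1). Among genes with a candidate in the replicate, core genes had a median of 70.5 and regulatory genes 75.5 in replicate 1, and 58.1 and 68.7 in replicate 2. The order of the medians turned when genes with no candidate in a replicate were set to percentile 0, an alternative chosen after seeing the data: 69.4 for core and 66.3 for regulatory genes in replicate 1, and 51.4 and 38.9 in replicate 2. The order of the particles is thus not fixed by these lists.

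**Figure D2:**
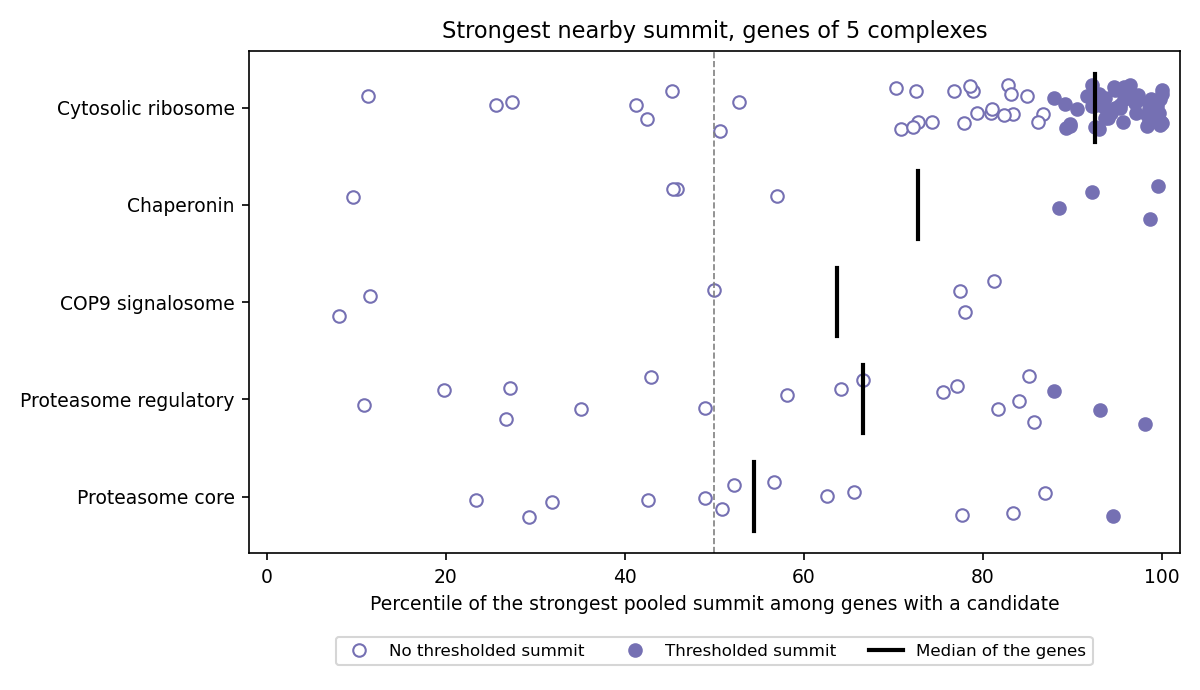
Percentile of the strongest pooled summit (x axis) for the genes of the proteasome core and regulatory particle, the COP9 signalosome, the cytosolic chaperonin and the cytosolic ribosome (y axis; points are genes, spread vertically for view, filled where a thresholded summit lies within 1000 bp; black bars are medians). Core genes spread from 23.4 to 94.5 and regulatory genes from 10.8 to 98.1, with medians of 54.5 and 66.6, while ribosomal protein genes crowd at the top with a median of 92.5.

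Genes of other large complexes were at different levels in the same list. The COP9 signalosome, whose subunits are related to those of the proteasome lid, had 0 of 6 csn- genes bound and a median percentile of 63.7. The chaperonin, which folds cytosolic proteins, had 4 of 8 cct- genes bound and a median of 72.7. Of 78 rpl- and rps- genes, 47 were bound (60.3%), with a median percentile of 92.5 over the 75 with a candidate. Of the 75 with a candidate, 62.7% were bound. The background for these counts is 5.83% of all protein-coding genes and 12.7% of those with a candidate.

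Most proteasome summits lay upstream of the gene, and most proteasome genes had an opposite-strand gene start within 1000 bp upstream. The strongest pooled summit was upstream for 25 of 33 (75.8%), against 60.5% of the 9153 genes. It was upstream and within 500 bp for 20 (60.6%), against 39.8%. Regulatory genes had 16 of 19 summits upstream, and core genes 9 of 14. In the beta ring 3 of 7 were upstream, since the strongest summits of pbs-2, pbs-4, pbs-5 and pbs-6 lay inside those genes at 630, 928, 187 and 387 bp.

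**Figure D3:**
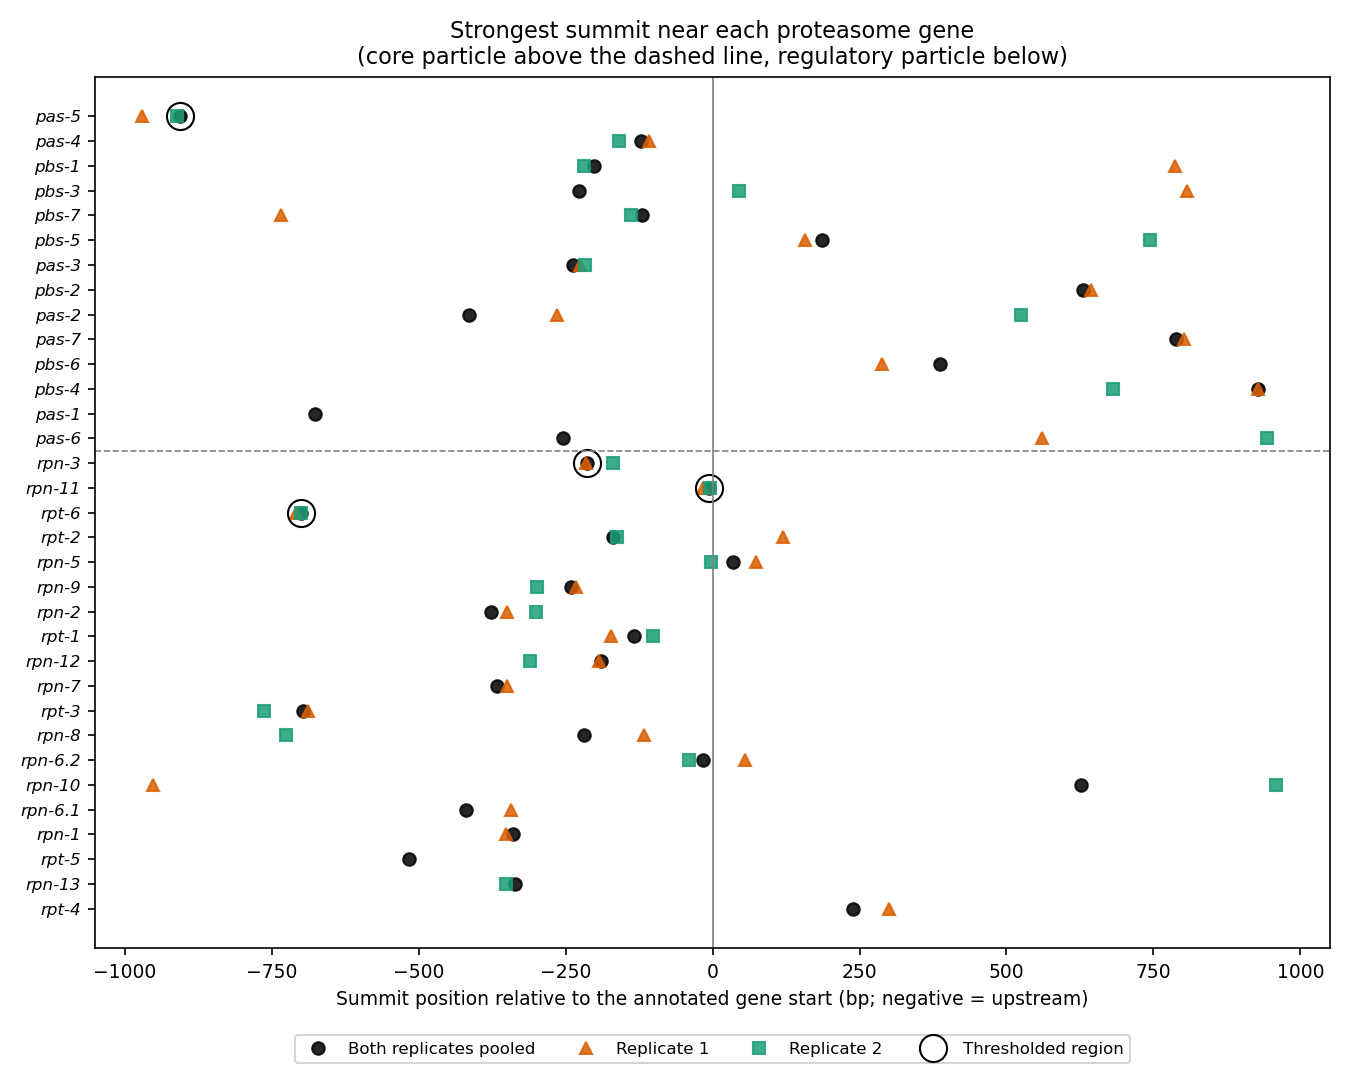
Position of the strongest summit relative to the annotated start of each proteasome gene (x axis, bp, negative upstream; y axis, genes ordered by pooled signal within each particle), for the pooled list and each replicate. The replicate summits of rpn-3 lie within 44 bp of the pooled one, those of rpn-11 within 10 bp and those of rpt-6 within 7 bp. Regulatory genes have 16 of 19 pooled summits upstream. Genes of both particles have a strongest replicate summit far from the pooled one. The farthest is that of rpn-10 in replicate 1, at 1578 bp. Both replicates also have another rpn-10 summit within 200 bp of the pooled one.

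The replicates placed a summit within 200 bp of the pooled one for 29 of 33 proteasome genes in replicate 1 (87.9%, against 74.4% of the 9153 genes) and 20 in replicate 2 (60.6%, against 63.4%). For 19 both did (57.6%, against 47.5%). Neither replicate did for 3 of the 33, against 894 of the 9153 genes. The 3 were pas-1, pas-6 and rpt-5, with pooled signals of 25.5, 23.9 and 24.8. The strongest candidates of these 3 genes therefore rest on the pooled list alone.

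A start on the opposite strand within 1000 bp upstream, with no gene of the same strand ending within 500 bp, made a gene head-to-head. This held for 20 of 33 proteasome genes (60.6%) and for 21.3% of genes with a candidate. Their neighbours included hsp-110 (rpn-3), rad-23 (rpn-12), the cohesin gene scc-1 (rpn-5) and the mitochondrial ribosomal protein gene mrps-6 (rpn-8). Of the 20, only rpn-3 was bound (5.0%), against 23.2% of all head-to-head genes with a candidate. The head-to-head genes pas-4 (78.3) and rpt-2 (74.4) lay under the lowest thresholded signal of 79.7. Each was among the strongest regions of 1 replicate. The bound gene rpt-6 was not counted as head-to-head, since its start and that of his-72 are 1406 bp apart. The median percentile of the 20 was 61.9, and that of all head-to-head genes 62.5. Another 8 followed a gene on the same strand by at most 500 bp, among them rpn-11, pbs-3 and pbs-5, with a median of 55.8 against 50.3 for all genes placed so.

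Genes whose products work with the proteasome were read from the same list. Of 18 partner genes listed from textbook roles, 17 were annotated under the listed symbol (all but adrm-1), 12 had a candidate and 6 were bound, with a median percentile of 88.0 over those 12. The background for the bound count is again 12.7% of genes with a candidate and 5.83% of all protein-coding genes. The difference from the subunits was not tested. The ubiquitin genes ubq-1 and ubq-2 had pooled signals of 105 and 144, and ubq-2 encodes ubiquitin fused to a ribosomal protein. The ubiquitin-activating enzyme gene uba-1 had 86.0, and the deubiquitinase gene usp-14 had 91.5. Both were among the strongest regions of replicate 2 and not of replicate 1. The shuttle gene ubql-1 had 126, and wdr-23, whose product restrains SKN-1, had 142, at percentile 93.8 in replicate 1 and 95.7 in replicate 2. The gene skn-1 itself had 63.5 (percentile 82.1) and was not bound, although it was among the strongest regions of replicate 1. The gene aip-1, for a zinc finger protein that associates with the proteasome, had 78.1 (percentile 86.9) and was not bound, although it was among the strongest regions of replicate 2. The genes sel-11, for a ubiquitin ligase of the endoplasmic reticulum, and sel-1, for its partner, were at percentiles 76.9 and 56.7. In replicates 1 and 2, sel-11 was at percentiles 78.3 and 27.8, and sel-1 at 38.4 and 54.6. The assembly chaperone gene psmd-9 was at 28.5. The genes ddi-1 and png-1, whose products process SKN-1A, had no candidate, nor did dss-1, for a small lid subunit, the deubiquitinase gene ubh-4 and the activator gene psme-3. The shuttle gene rad-23 shared the summit of rpn-12, between their starts, with a signal of 52.2 (percentile 75.6).

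The sequence around the summits was searched for short words, among them the SKN-1 cores named above. Words were searched on both strands in 300 bases around the strongest pooled summit, with the share in distinct windows of all genes with a candidate as background. GTCAT was in 21 of 33 windows (63.6%), against 34.8% of 7791 windows and 34.1% of the 856 windows of bound genes. ATCAT was also in 21 (63.6%), against 50.6% and 40.7%, and the 2 words overlap where ATCAT follows GTC. GATAA, the GATA factor core, was in 18 (54.5%), against 52.0% and 45.7%. TTCCCGC, an E2F-type word, was in 3 (9.09%), those of rpn-2, rpn-8 and rpn-11, against 4.02% and 5.84%. These are matches of letters, with no test.

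**Figure D4:**
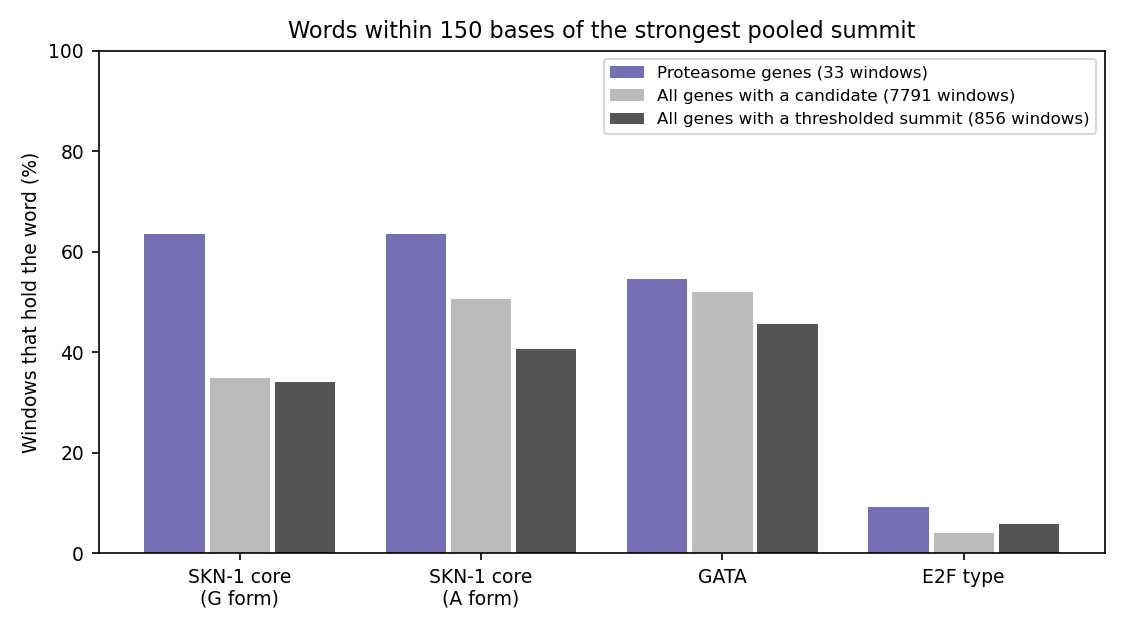
Share of windows of 300 bases around the strongest pooled summit that hold each word (y axis, %; x axis, GTCAT then ATCAT, with GATAA and then TTCCCGC to their right), for the 33 proteasome windows, the 7791 distinct windows of genes with a candidate and the 856 of bound genes. GTCAT has the widest gap, at 63.6% of proteasome windows against 34.8% of all.

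Windows of strong and of weak proteasome regions both held or lacked the words. Of the 4 bound genes, 2 had GTCAT in the window (50.0%): pas-5 at 3 places, the most of all 33, and rpn-11 at 2 places. The window of rpn-3 had ATCAT but no GTCAT, and that of rpt-6 none of the 4 words, as the sequences above show. The window of pas-1, at percentile 29.3, had GTCAT at 2 places, and its summit lay 9 bp from the start of rpoa-12 and 677 bp from that of pas-1. In promoters, from 250 bases before to 50 after the annotated start, GTCAT was in 19 of 33 (57.6%) against 39.5% of all protein-coding genes, and ATCAT in 19 (57.6%) against 55.6%. GTCAT was in 3 of 6 COP9 signalosome promoters, 2 of 8 chaperonin promoters and 26 of 78 cytosolic ribosomal protein promoters (33.3%). Proteasome windows had a median GC content of 35.3%, against 36.3% for all windows and 41.0% for those of bound genes.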

How the data were processed

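SPR-1 ChIP-seq regions were used from 2 biological replicates of L4 hermaphrodites. Per the labels, regions were made on ce10 and ce11, and the ce11 lists were used: 26070 candidates of replicate 1, 21966 of replicate 2, 30000 of both pooled, and 1686 thresholded lines, all of which are lines of the pooled list. Per the deposited file listings, candidates were the input of an irreproducible discovery rate analysis and derive from the ChIP alignments and a control alignment. Which aligner, caller and threshold were used was not given in the sources used here. Signal values were taken as the authors deposited them, on an unstated scale. Region ends lay within the WBcel235 chromosome lengths, and genes are from Ensembl release 115. An annotated start here may be a trans-splice site.

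For each gene the strongest summit within 1000 bp of its start was taken and ranked within the list (Python 3.11.15, pandas 2.3.3). The search was checked on simulated positions. In each replicate, bound means among its 1686 strongest lines. Replicates were also read alone, which with no residual spread gives values and no test. The members, lists, words and alternatives were chosen with earlier results of these data known. Genes named are those bound in any list, those with no candidate, the 5 strongest not bound, and listed partners and neighbours; other members named for their role or for a split between replicates were named after their values were seen. The words of promoters were read from the genome.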

Additional observations from a re-analysis of the deposited data

How the results depend on the processing

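The number of bound proteasome genes depended mostly on distance and threshold. It was 4 in the main reading (12.1%, against 5.83% of all protein-coding genes). With summits within 500 bp it was 2, rpn-3 and rpn-11 (6.06%, against 4.36%), and within 2000 bp 7 (21.2%, against 8.52%). It was 2 with the 843 strongest regions, rpn-3 and pas-5 (6.06%, against 3.15%), and 10 with the 3372 strongest (30.3%, against 10.2%). These backgrounds also apply to the core and regulatory counts that follow. The count of core genes, 1 in the main reading, was 0 within 500 bp, 4 within 2000 bp and 3 with the 3372 strongest regions. It was 2 when the region itself and not its summit had to reach the window (background 6.46% of all protein-coding genes). Without regions near tRNA or small nucleolar RNA genes it was 0 (background 5.25%). Leaving out a replicate gave 1 to 2 core genes (background 5.65% to 5.96%). The count of regulatory genes, 3 in the main reading, was 1 with the 843 strongest and 7 with the 3372 strongest regions, and 2 to 4 without one replicate. Within 2000 bp the median percentile was 75.0 for core and 74.3 for regulatory genes, so that their order turned. Without one replicate it was 58.1 to 70.5 and 68.7 to 75.5. With absent genes at percentile 0 it was 51.4 and 69.4 for core and 38.9 and 66.3 for regulatory genes. The cause of these shifts was not tested. Under the alternatives not given above, the count of bound proteasome genes was 3 to 5 (background 4.32% to 6.46% of all protein-coding genes). The number with a candidate was 28 within 500 bp. The ce10 lists were not analysed here, since the annotation is of ce11. Depth is unknown, so no limit on undetected regions can be given, and 2 replicates limit the precision of each rank.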

Other observations

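The proteasome genes lie on autosomes. There are 10 on chromosome I, 7 on II, 8 on III, 3 on IV and 5 on V, and 0 on X, which holds 13.7% of protein-coding genes. The 10 on I are 7 core and 3 regulatory genes, and of the 8 on III 7 are regulatory. The bound genes are 1 on I, 1 on II and 2 on III.

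An annotated non-coding RNA gene lay within 200 bp of the strongest pooled summit at 4 of 33 proteasome genes (12.1%), against 6.95% of genes with a candidate. These were rpn-3 (C30C11.14), pas-4 (C36B1.16), rpt-2 (F29G9.10) and rpn-1 (T22D1.19), each a head-to-head gene. Of these, rpn-3 was bound, pas-4 and rpt-2 were among the strongest regions of 1 replicate, and rpn-1 was at percentile 27.1. A gene for a tRNA, small nucleolar or small nuclear RNA lay within 200 bp of 1 summit, that of pas-5 (3.03%, against 2.64%).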
